A study of Homo sapiens with 17 samples.

Results

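The genes described here are 10 known transcriptional targets of ATF4 in amino acid supply and stress, namely PHGDH, PSAT1, PSPH, SHMT2, MTHFD2, ASNS, CHAC1, TRIB3, SESN2 and DDIT4. They were chosen by name, as known targets, from 17283 genes with any count in the 17 libraries. HEK293 cells, a human embryonic kidney line, were electroporated with ribonucleoproteins of either Cas9 or the catalytically dead dCas9. All cells received the same guide, sgIntron, which targets intron 12 of JAK2, so the treatments compared differ in the nuclease. Ribosome footprints and mRNA were sequenced from cells lysed 36 h or 72 h later. At 36 h there were 2 footprint libraries per nuclease, 3 Cas9 mRNA libraries and 2 dCas9 mRNA libraries, and at 72 h each nuclease had 2 libraries of each type. Each biological replicate was a plate of cells combined from several electroporations. The guides were synthetic at 36 h and transcribed in vitro at 72 h, and edited and unedited cells of a plate were sequenced together. No untreated cells were analysed here.

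ATF4 is a transcription factor of the integrated stress response. When eIF2α is phosphorylated, most translation initiation slows, while upstream reading frames in the ATF4 mRNA let more ribosomes reach its coding region. ATF4 then binds C/EBP-ATF response elements and raises transcription of genes that supply amino acids and of genes that adjust growth under stress. PHGDH, PSAT1 and PSPH catalyse the successive steps that make serine from a glycolytic intermediate. SHMT2 and MTHFD2 carry the serine-derived carbon through mitochondrial folates. ASNS makes asparagine, and CHAC1 breaks down glutathione. TRIB3 is a pseudokinase that restrains AKT and ATF4 signalling, SESN2 senses leucine upstream of mTORC1, and DDIT4 (also called REDD1) lowers mTORC1 activity.

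The genes lie on 8 chromosomes, at these GENCODE release 44 positions on GRCh38. PHGDH is at chr1:119648411-119744218 on the plus strand, PSAT1 at chr9:78297125-78330093 on the plus strand and PSPH at chr7:56011051-56051604 on the minus strand. SHMT2 is at chr12:57229573-57234935 and MTHFD2 at chr2:74186172-74217565, both on the plus strand. ASNS is at chr7:97851677-97872542 on the minus strand and CHAC1 at chr15:40952962-40956512 on the plus strand. TRIB3 is at chr20:362835-397559, SESN2 at chr1:28259518-28282491 and DDIT4 at chr10:72273919-72276036, all on the plus strand. All values are counts over the coding exons of 1 transcript per gene.

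The core of the response element, TGATGNAA, was searched on both strands in RefSeq promoter windows of GRCh38.p14 that run from 250 bases before to 50 bases after a gene's start. A window was found for 8 of the 10 genes, 11 windows in all. PSPH and SHMT2 had none in the table used. ASNS and CHAC1 held the motif, and 3.62% of the 35116 windows of all genes held it. Both sites are shown with 11 bases on each side, written 5′ to 3′ on the strand of the gene, with the motif in capitals, because elements of this kind are those through which ATF4 is known to act.

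ASNS: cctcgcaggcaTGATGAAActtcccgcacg
CHAC1: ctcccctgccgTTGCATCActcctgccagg

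The ASNS site lies at chr7:97872458-97872487 on the minus strand, and its motif starts 68 bases before the RefSeq start. The CHAC1 site lies at chr15:40953251-40953280 on the plus strand and holds the motif as its reverse complement, TTNCATCA, from 209 bases before the start. In GENCODE release 44, the ASNS motif overlaps non-coding exon sequence of 2 ASNS transcripts that start further upstream, and the CHAC1 motif that of 1 CHAC1 transcript. A match in these letters is not evidence of binding, and its absence from the other windows says only that these letters are not there.

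Footprint depth, summed over the transcript kept for each gene, ran from 689636 to 4868580 counts at 36 h and from 3183558 to 8864461 counts at 72 h. The depth of the mRNA libraries ran from 25095505 to 42825659 counts. The shallowest footprint libraries were dCas9 replicate e and Cas9 replicate a at 36 h, so the 36 h footprints carry the largest counting error. Among HEK293 markers, VIM mRNA stood between 599 and 1069 CPM (counts per 1000000 counts, over the tested genes after TMM normalization). KRT18 stood between 51.1 and 62.0 CPM. The other markers were lower, with KRT8 between 3.97 and 8.67 CPM and NEFM between 2.65 and 14.5 CPM, while PAX2 reached only 0.32. Markers of blood, liver, muscle and endothelial cells were near 0 in mRNA, with CD3E and HBB without any count and PECAM1 the highest at 0.839 CPM. JAK2, whose intron is cut, had 0 to 23 footprint counts per library and was not tested. Of the 10 ATF4 targets, 9 reached a mean count of 20 in the footprint libraries and in the mRNA libraries and were tested at each time point. CHAC1 was the exception. No CHAC1 transcript was matched in the 36 h files, and at 72 h its footprint counts were 3 and 8 in the Cas9 libraries and 4 and 4 in the dCas9 libraries. Its mRNA counts were 28 and 24 with Cas9 and 40 and 27 with dCas9. These counts are too few for the main tests, and no change with Cas9 is given for CHAC1. Fits at 72 h without a count minimum included CHAC1, and it did not pass in them.

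Levels between genes were compared as counts per codon of the counted coding region, scaled so that all genes of a library sum to 1000000 (TPM-like units, for footprints and mRNA alike). In dCas9 cells at 72 h, PHGDH had the most footprints, with 322 ± 19.0 of these units (SD, n = 2). SHMT2 followed with 203 ± 2.90, then PSAT1 with 106 ± 7.06 and MTHFD2 with 95.0 ± 4.01. ASNS and DDIT4 did not differ beyond their spread, with 46.4 ± 1.36 and 46.1 ± 1.78. SESN2 and PSPH, with 26.0 ± 3.04 and 22.7 ± 0.557, were also within about a spread of each other. TRIB3 had 6.71 ± 0.466, and CHAC1 had 0.568 ± 0.112, which rests on 4 counts in each library. Footprints per codon spanned 47.9-fold across the 9 tested genes and 46.2-fold at 36 h, where the order of these genes was the same.

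The order of the mRNA levels was different. MTHFD2 stood first in dCas9 cells at 72 h, with 164 ± 5.65 TPM-like units (SD, n = 2), and PHGDH was next with 154 ± 2.51. SHMT2 had 138 ± 7.90 and PSAT1 69.4 ± 8.50. PSPH mRNA, at 34.5 ± 3.72, stood above that of DDIT4, at 20.1 ± 0.529, although DDIT4 had more footprints. DDIT4 and SESN2 mRNA, the latter at 19.2 ± 1.19, did not differ beyond their spread. In dCas9 cells at 36 h, PHGDH stood first in mRNA with 200 ± 17.5, and MTHFD2 followed with 152 ± 14.8 (SD, n = 2).

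The ratio of footprint CPM to mRNA CPM put these genes on both sides of the median of all tested genes, which was 0.869 in dCas9 cells at 72 h. DDIT4 and PHGDH had 2.68 and 2.44 footprints per mRNA, above 95.5% and 94.3% of tested genes. Over the 4 combinations of a footprint and an mRNA library, DDIT4 ranged from 2.58 to 2.78 and PHGDH from 2.33 to 2.56. PSAT1 and SHMT2 had ratios of 1.79 and 1.72, SESN2 1.59 and ASNS 1.25. TRIB3, PSPH and MTHFD2 were below the median, with 0.828, 0.771 and 0.677. The enzymes of serine synthesis therefore did not share a ratio, since PSPH, which catalyses the last step, had a ratio below that of PHGDH in every combination of libraries. The order was not the same in dCas9 cells at 36 h. There PHGDH was highest at 1.98, and DDIT4 had 1.47 (0.875 to 2.16 over combinations), above 79.9% of tested genes. TRIB3, at 0.908, was above the 36 h median of 0.880, and PSPH was lowest at 0.629.

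ATF4 itself had a ratio below those of the 9 tested genes. In dCas9 cells it had 526 ± 26.6 TPM-like units of mRNA but only 35.0 ± 4.29 of footprints at 72 h (SD, n = 2). Its footprints per mRNA were 0.0778, a ratio that exceeded only 0.156% of tested genes, and at 36 h the ratio was 0.134. In Cas9 cells the ratio was 0.121 at 36 h and 0.0717 at 72 h. The range over library combinations was 0.0970 to 0.149 with Cas9 and 0.0956 to 0.178 with dCas9 at 36 h, and 0.0690 to 0.0745 and 0.0675 to 0.0894 at 72 h, so the nucleases overlapped at both times.

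**Figure D1:**
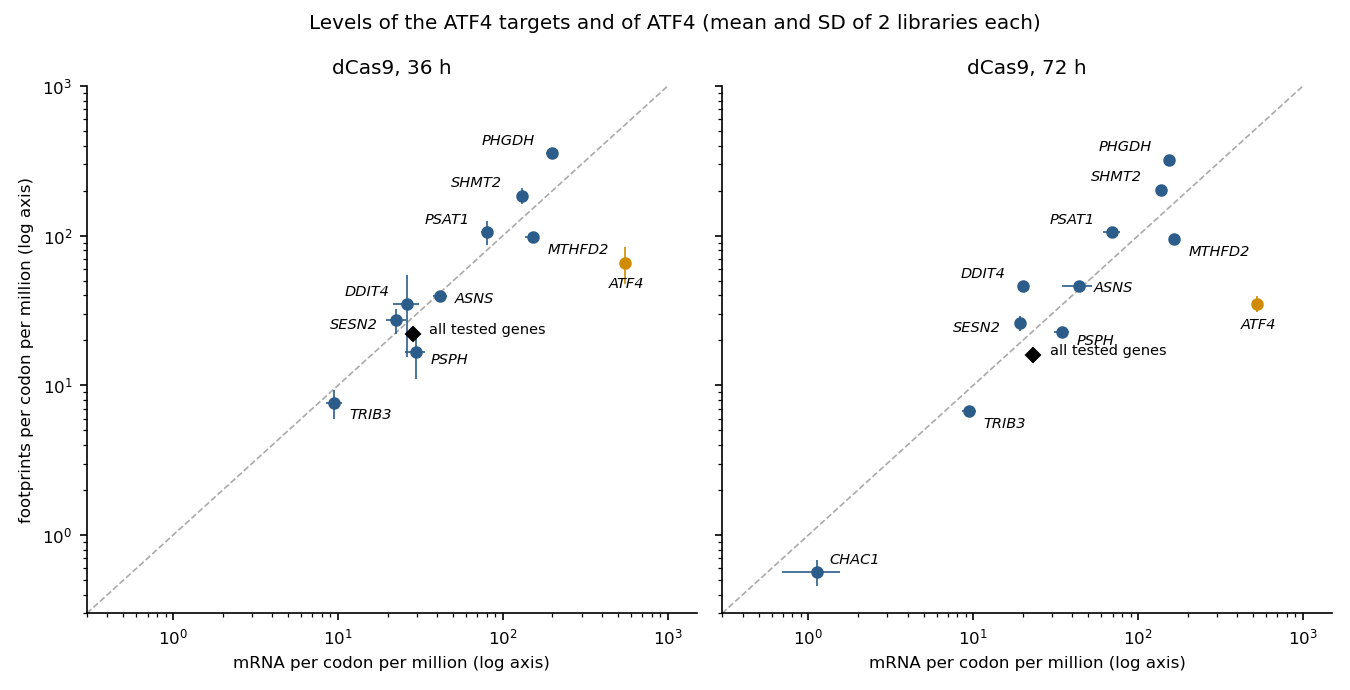
Footprint level (vertical axis, log scale) against mRNA level (horizontal axis, log scale) in dCas9 cells at 36 h and 72 h, both in counts per codon scaled to a common library sum, as the mean and SD of 2 libraries each. PHGDH lies above the dashed line of equal values and MTHFD2 below it, ATF4 lies far below it at 35.0 units of footprints and 526 of mRNA at 72 h, and the black diamond marks the median of all tested genes.

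Cas9 was then compared with dCas9, to ask whether a double-strand break in an intron altered the translation or abundance of these mRNAs. The comparisons used quasi-likelihood tests in edgeR, with p-values adjusted over all tested genes by the Benjamini-Hochberg method and a false discovery rate of 0.1. None of the 9 tested genes passed in any of the 8 comparisons, nor with DESeq2. A change in few cells and a small change in all of them cannot be told apart in these lysates.

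**Figure D2:**
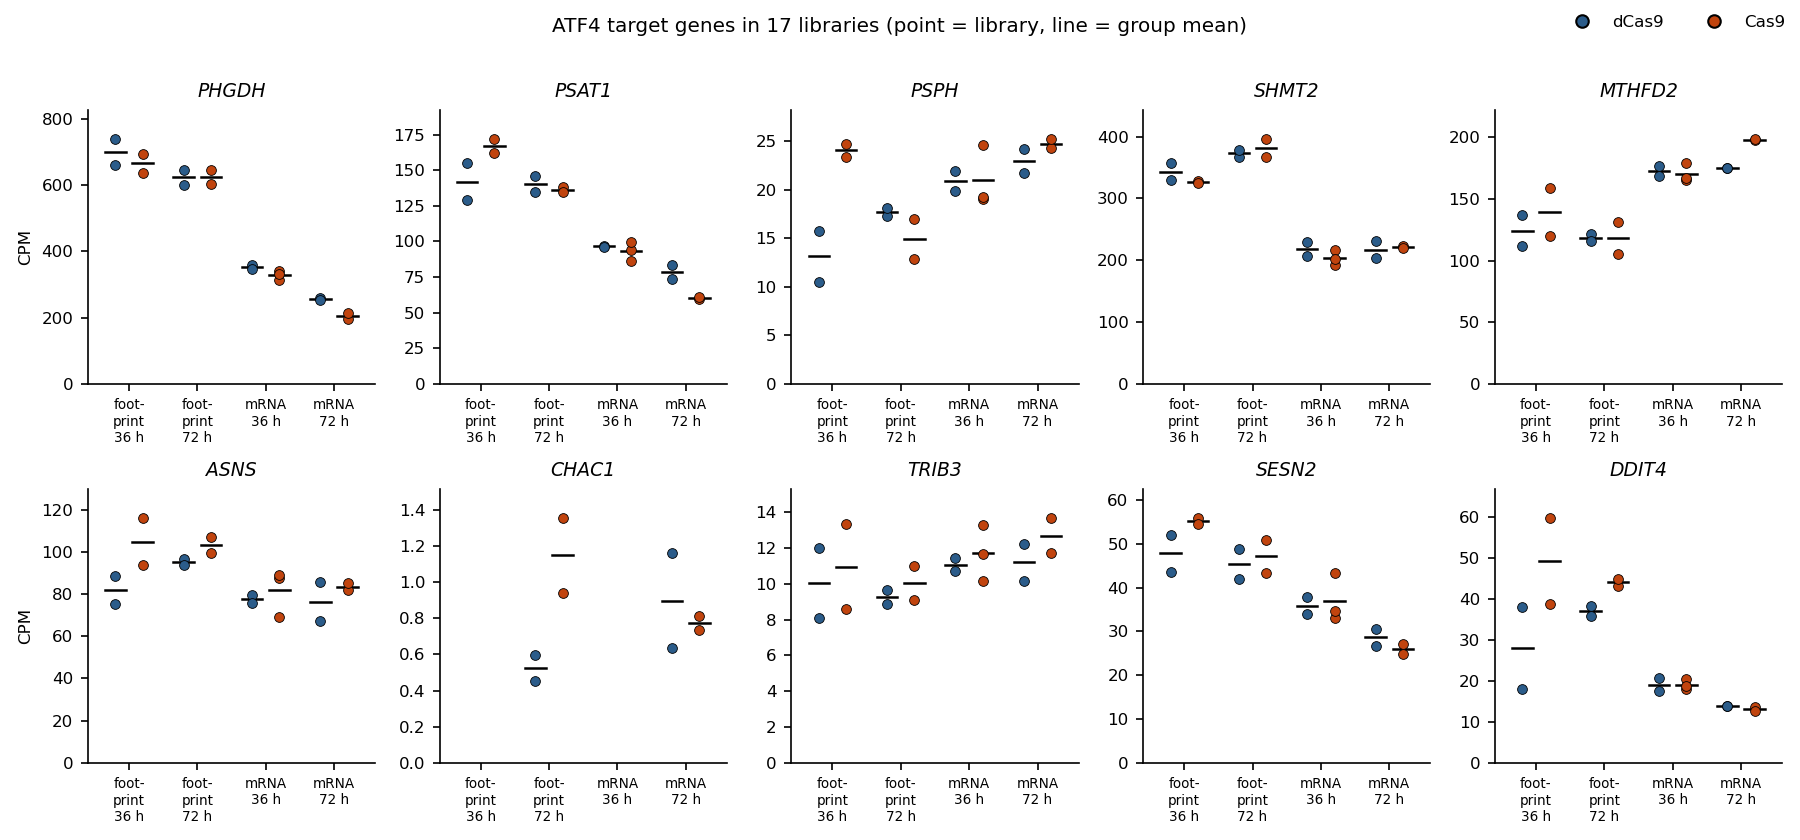
Normalized counts (CPM, vertical axes from 0) of the 10 ATF4 targets in each library, by library type and time point, where a point is a library and a line the group mean. In mRNA at 72 h, Cas9 lies below dCas9 without overlap for PHGDH, PSAT1 and DDIT4, and above it for PSPH and MTHFD2. Of all tested genes, 49.6% did not overlap in this comparison. The 36 h footprint points are the most scattered, and CHAC1 was listed at 72 h only.

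At 36 h, the footprints of 7 of the 9 genes were above 0 on the log2 scale and those of 2 below, with a median log2 fold change of 0.20 against 0.0099 over all 9016 tested genes. No gene passed the threshold (0% of tested genes, 188 genes at an unadjusted p under 0.05, and 0 genes with DESeq2). None of the 9 genes had an unadjusted p under 0.05. The Cas9 and dCas9 libraries did not overlap for 6 of them, 5 higher and 1 lower with Cas9, where 30.5% of all tested genes did not overlap. The highest log2 fold changes, those of PSPH and DDIT4, rested on few counts.

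PSPH, the phosphatase that releases serine, had 24.7 and 23.4 footprint CPM in the Cas9 libraries and 15.7 and 10.5 CPM in the dCas9 libraries. Both Cas9 libraries were above both dCas9 libraries, and the lowest value rested on 7 counts. The log2 fold change was 0.82 (SE 0.67), with an adjusted p of 0.999 in edgeR.

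DDIT4 had 38.7 and 59.7 footprint CPM with Cas9 and 37.9 and 18.0 CPM with dCas9. The libraries did not overlap, but the lower Cas9 library lay just above the upper dCas9 library, and the value of 18.0 CPM rested on 12 counts. The log2 fold change was 0.74 (SE 0.46), with an adjusted p of 0.999 in edgeR, and it ranged from 0.39 without Cas9 replicate c to 1.46 without dCas9 replicate d. ASNS had 116 and 93.6 footprint CPM with Cas9 and 75.3 and 88.7 with dCas9, a log2 fold change of 0.36 (SE 0.30). Here too the lowest Cas9 value lay just above the highest dCas9 value.

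PSAT1 and SESN2 footprints were 162 and 172 CPM and 55.9 and 54.5 CPM with Cas9, against 155 and 129 CPM and 52.1 and 43.6 CPM with dCas9. The log2 fold changes were 0.22 (SE 0.24) and 0.18 (SE 0.37). PHGDH and SHMT2, the members with the most footprints, had log2 fold changes of -0.069 (SE 0.15) and -0.075 (SE 0.18). For both, the size of the difference was less than its standard error. MTHFD2 and TRIB3, at 0.17 (SE 0.27) and 0.20 (SE 0.94), had overlapping groups, and TRIB3 had only 8 footprints in each of the shallowest libraries.

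The mRNA of the same genes differed little at 36 h. The median log2 fold change over the 9 genes was 0.0017, against 0.0016 over all tested genes, and single genes ranged from -0.10 to 0.080. Among all tested genes 2 passed (0.0222%), and none of the 9 ATF4 targets did or had an unadjusted p under 0.05. The libraries did not overlap for 1 of them, PHGDH, where 16.9% of all tested genes did not overlap. PHGDH mRNA was 340, 315 and 331 CPM with Cas9 and 359 and 348 CPM with dCas9. Every Cas9 library was below both dCas9 libraries, with a log2 fold change of -0.10 (SE 0.094). ATF4 mRNA was 603, 587 and 546 CPM with Cas9 and 590 and 674 CPM with dCas9, and the groups overlapped.

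Translational efficiency, the footprint change beyond the mRNA change, was above 0 for all 9 genes at 36 h. The median log2 difference was 0.27, against 0.010 over all tested genes, and the genes ranged from 0.032 for SHMT2 to 0.75 for PSPH. None passed the threshold, and none had an unadjusted p under 0.05. No tested gene passed (0% of tested genes, 568 genes at an unadjusted p under 0.05, and 1 gene with DESeq2). The smallest adjusted p of the 9 genes was 0.837 in edgeR. All 24 combinations of library pairs were above 0 for 2 of the 9, PSAT1 and PSPH, where 15.1% of all tested genes had all combinations on 1 side of 0. The 9 genes were measured in the same 9 libraries and are not independent samples. Without footprint library dCas9 replicate d, the deepest of the 36 h footprint libraries, the median was 0.13 and 7 of the 9 genes were above 0. Without footprint library dCas9 replicate e, the shallowest, the median was 0.32 with 8 genes above 0. It was also 8 genes without footprint library Cas9 replicate a or c, and without mRNA library Cas9 replicate b or dCas9 replicate e. With the replicate letter as a block, 8 genes were above 0. All 9 stayed above 0 without mRNA library Cas9 replicate a or c or dCas9 replicate d.

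**Figure D3:**
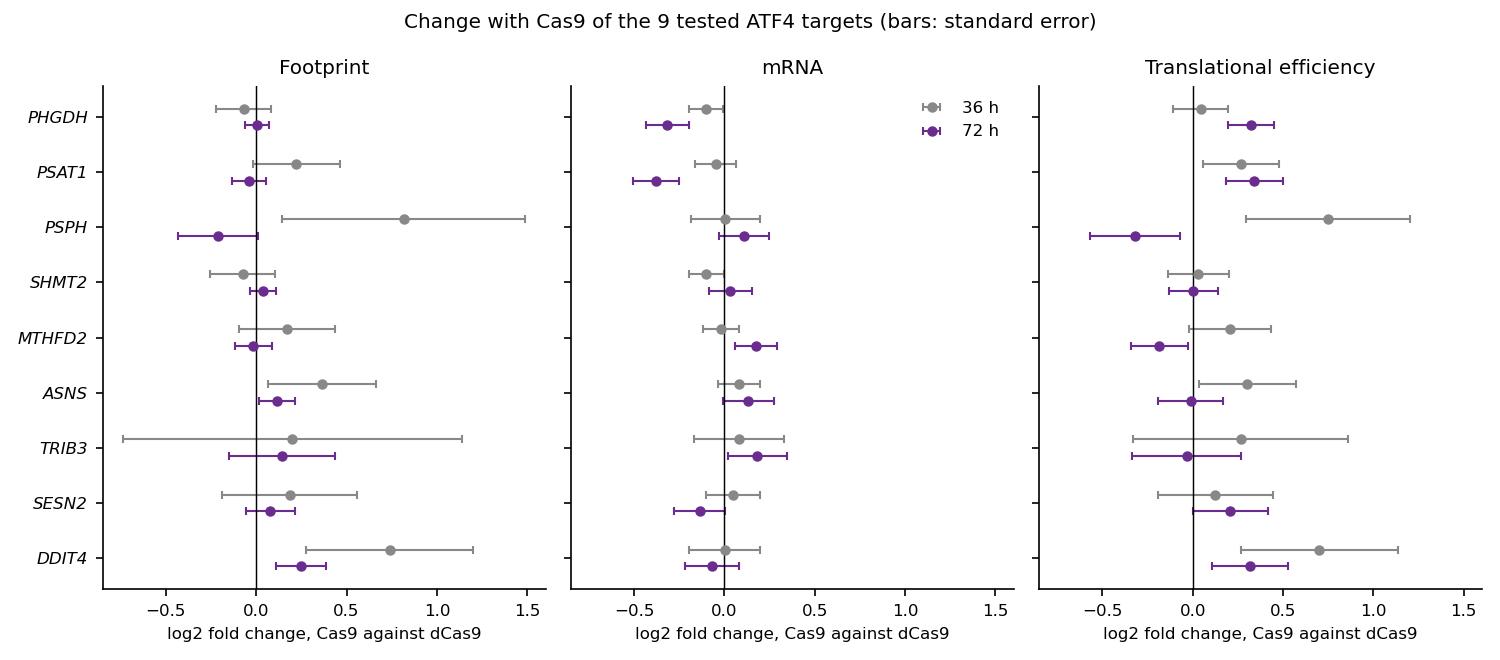
Log2 fold change of Cas9 against dCas9 (horizontal axes) for the 9 tested ATF4 targets in footprints, mRNA and translational efficiency, at 36 h in grey and 72 h in purple, with bars of 1 standard error. The 36 h footprint bars are the widest, PHGDH and PSAT1 mRNA at 72 h lie at -0.32 and -0.38, and no gene passed the threshold in any panel.

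At 72 h, the footprint differences of these genes had a smaller median than at 36 h. Depth also differed between the times, and its part was not tested. The median log2 fold change of the 9 genes was 0.037, against 0.0017 over all 10896 tested genes, with 6 genes above 0 and 3 below. Among all tested genes 4 passed (0.0367%), and none of the 9 ATF4 targets did or had an unadjusted p under 0.05. The libraries did not overlap for 3 of the 9, 2 higher and 1 lower with Cas9, where 31.7% of all tested genes did not overlap.

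At 72 h DDIT4 had the highest log2 fold change of the 9, whereas PSPH had it at 36 h. DDIT4 had 43.1 and 44.9 footprint CPM in the Cas9 libraries and 35.9 and 38.3 CPM in the dCas9 libraries. Both Cas9 libraries were above both dCas9 libraries. The log2 fold change was 0.25 (SE 0.14), with an unadjusted p of 0.0853 and an adjusted p of 1.00 in edgeR. ASNS had 107 and 99.4 CPM with Cas9 and 96.5 and 93.6 CPM with dCas9, a log2 fold change of 0.11 (SE 0.10).

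PSPH lay the other way at this time, with 12.9 and 16.95 footprint CPM with Cas9 and 17.3 and 18.1 CPM with dCas9. The groups did not overlap, although the upper Cas9 library lay just below the lower dCas9 library. The log2 fold change was -0.21 (SE 0.22), and it ranged from -0.46 without Cas9 replicate f to -0.063 without Cas9 replicate e. PHGDH footprints were 603 and 647 CPM with Cas9 and 647 and 602 CPM with dCas9, so the nucleases covered the same range, and the log2 fold change was 0.0033 (SE 0.068). PSAT1, SHMT2 and MTHFD2 had log2 fold changes of -0.040 (SE 0.092), 0.037 (SE 0.073) and -0.017 (SE 0.10). These enzymes therefore differed by less than their standard errors.

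The mRNA at 72 h held the lowest p-values of these genes. PHGDH mRNA was 195 and 216 CPM with Cas9 and 259 and 253 CPM with dCas9. PSAT1 mRNA was 59.9 and 60.9 CPM with Cas9 and 73.6 and 83.5 CPM with dCas9. For both enzymes, which catalyse the first steps of serine synthesis, every Cas9 library was below every dCas9 library.

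The log2 fold change of PHGDH mRNA was -0.32 (SE 0.12), with an unadjusted p of 0.0209 and an adjusted p of 0.258 in edgeR. For PSAT1 it was -0.38 (SE 0.13), with an unadjusted p of 0.0124 and an adjusted p of 0.211 in edgeR. Neither passed the threshold. Among all tested genes 293 passed (2.69%), 3 higher and 290 lower with Cas9, and 14.8% had an unadjusted p under 0.05, as did 2 of the 9 ATF4 targets. The 2 groups of libraries did not overlap for 5 of the 9, 2 higher and 3 lower, where 49.6% of all tested genes did not overlap.

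Whether PHGDH and PSAT1 passed depended on the fit. Both passed when footprints and mRNA shared 1 estimate of the spread, with adjusted p-values of 0.0628 and 0.0697 in edgeR. In that fit 614 of 10896 tested genes passed. PHGDH and PSAT1 also passed once the dependence of each library on the GC content of the coding region was removed. Their log2 fold changes were then -0.23 and -0.42, with adjusted p-values of 0.0645 and 0.00728 in edgeR. That setting changed the balance of all calls from 3 higher and 290 lower to 853 higher and 1535 lower. Leaving out 1 mRNA library left 1 library in a group, and whether these genes passed then changed with the library left out. The log2 fold change ranged from -0.40 to -0.25 for PHGDH and from -0.47 to -0.28 for PSAT1. For ASNS it ranged from -0.033 to 0.32. The coding GC content is 58.6% for PHGDH and 46.8% for PSAT1, against a median of 51.7% over the tested genes.

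**Figure D4:**
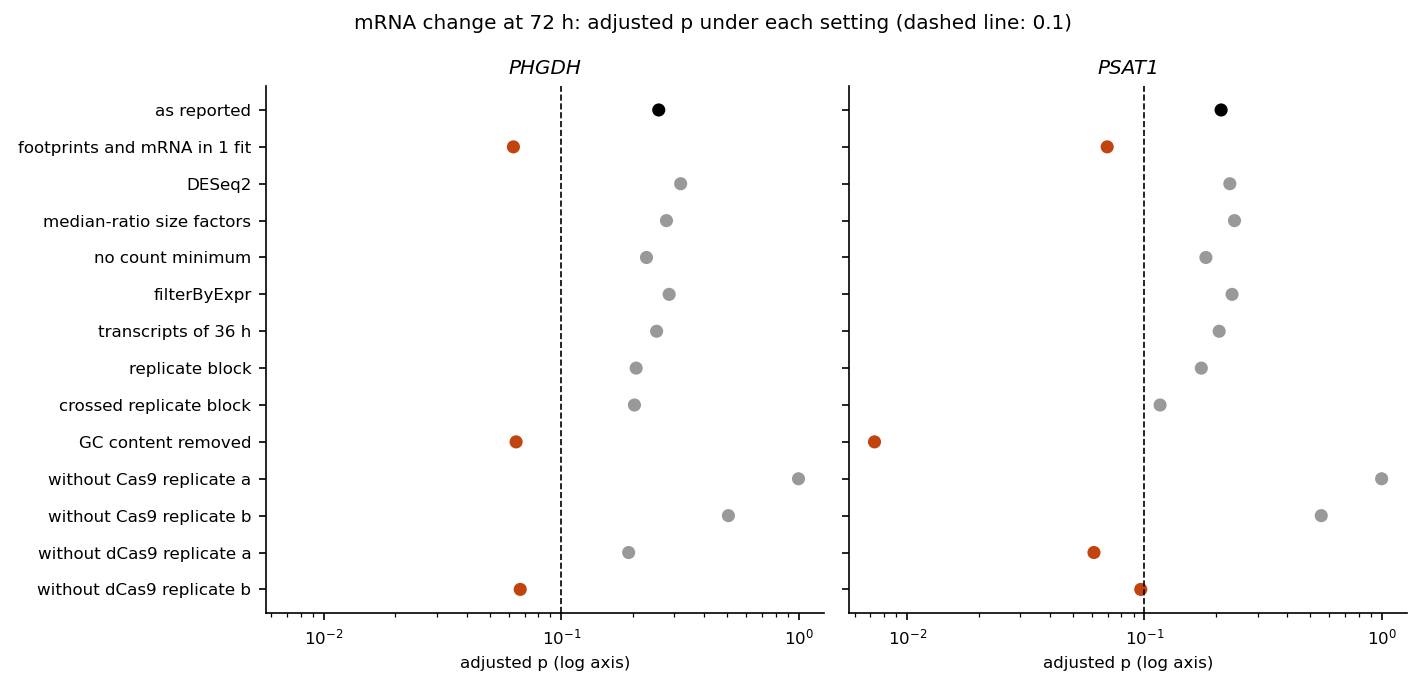
Adjusted p (horizontal axis, log scale) of the PHGDH and PSAT1 mRNA change at 72 h under each setting of the processing, with a dashed line at 0.1. The black point is the value as reported, 0.258 for PHGDH and 0.211 for PSAT1, orange points lie under 0.1 and grey points above it.

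The third enzyme of the pathway did not share this direction. PSPH mRNA was 24.2 and 25.2 CPM with Cas9 and 21.7 and 24.1 CPM with dCas9, a log2 fold change of 0.11 (SE 0.14). MTHFD2 mRNA was 198 and 199 CPM with Cas9 and 175 and 176 CPM with dCas9. Its replicates nearly coincided and the groups did not overlap, but the log2 fold change of 0.18 (SE 0.12) had an adjusted p of 0.481 in edgeR. The test moderates the spread of a gene towards that of genes of like abundance, and the part of this moderation was not tested. SHMT2 mRNA, at 0.033 (SE 0.12), overlapped.

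ASNS mRNA at 72 h was 81.9 and 85.2 CPM with Cas9 and 67.0 and 85.5 CPM with dCas9. The dCas9 libraries enclosed the Cas9 libraries, and the log2 fold change was 0.13 (SE 0.14). The regulators TRIB3, SESN2 and DDIT4 had log2 fold changes of 0.18 (SE 0.16), -0.14 (SE 0.14) and -0.069 (SE 0.15). DDIT4 mRNA was 13.7 and 12.7 CPM with Cas9 and 13.9 and 13.8 CPM with dCas9, so its footprints stood higher with Cas9 at this time while its mRNA stood slightly lower, without overlap in either.

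Translational efficiency at 72 h was above 0 for 5 of the 9 genes and below for 4, with a median of 0.0045 against 0.0010 over all tested genes. Among all tested genes 78 passed (0.716%), 76 higher and 2 lower. Of the ATF4 targets, PHGDH and PSAT1 had unadjusted p-values under 0.05, with log2 differences of 0.32 (SE 0.13) and 0.34 (SE 0.16) and adjusted p-values of 0.358 and 0.438 in edgeR. All 16 combinations of library pairs gave a value above 0 for both genes, whose mRNA log2 fold changes were -0.32 and -0.38 beside footprint values of 0.0033 and -0.040. DDIT4 was also above 0 in 16 of 16 combinations, at 0.32 (SE 0.21), and PSPH below 0 in 16 of 16, at -0.32 (SE 0.25). These are 4 of the 9 genes, where 26.9% of all tested genes had all 16 combinations on 1 side of 0. Without the mRNA library dCas9 replicate b, which left 1 dCas9 mRNA library, the PHGDH difference was 0.39.

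The changes at 72 h were compared with those at 36 h by the interaction of nuclease and time. For footprints, no gene passed (0% of tested genes, 287 genes at an unadjusted p under 0.05, and 0 genes with DESeq2), and none of the 9 had an unadjusted p under 0.05. The median difference over the 9 was -0.19, with PSPH lowest at -1.005 (SE 0.54) and an unadjusted p of 0.0881. For mRNA, 55 of 8970 genes passed (0.613%), and none of the 9 did. PSAT1 had the smallest unadjusted p of them, 0.0484, with a difference of -0.34 (SE 0.16) and an adjusted p of 0.413 in edgeR, and PHGDH had a difference of -0.22 (SE 0.12). Guide chemistry and annotation differed between the times, as did the aligner by the study's methods though not by the labels, and these cannot be told apart from time in this comparison.

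Other known ATF4 targets were read in the same way. The lists held 8 amino acid transporters, 6 further enzymes and 14 regulators and stress genes, 28 genes in all, of which 19 were tested at 36 h and 21 at 72 h. None of them passed in any of the 8 comparisons. The median log2 fold change of these genes in footprints was 0.014 at 36 h and 0.0057 at 72 h, and in mRNA 0.040 and 0.015. Their median translational efficiency change at 36 h was -0.014, with 9 genes above 0 and 10 below. For the members, 9 of 9 were above 0 as given earlier, though not in every fit. This contrast between lists was not tested. Of ATF4 and 5 genes upstream of it, which are eIF2α and its kinases, all 6 were tested and none passed. ATF4 mRNA had a log2 fold change of 0.17 (SE 0.11) at 72 h and its footprints of 0.056 (SE 0.14).

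The other enzymes of serine, glycine and folate metabolism held a gene that passed, in mRNA at 72 h. In that comparison 2.69% of all tested genes passed, 3 higher and 290 lower with Cas9. TYMS, which makes thymidylate from the folate-bound carbon, had 40.3 and 45.0 mRNA CPM with Cas9 and 57.9 and 71.6 CPM with dCas9 at 72 h. Every Cas9 library was below every dCas9 library, and TYMS mRNA fell, with a log2 fold change of -0.60 (SE 0.14) and an adjusted p of 0.0767 in edgeR. It was the only 1 of 6 tested genes of this list of 8 to pass in any comparison, and it did not pass with median-ratio size factors (adjusted p 0.111 in edgeR), without Cas9 replicate a (1.00) or without Cas9 replicate b (0.125).

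Among 9 paralogs of the members, MTHFD1 passed, also in mRNA at 72 h, where 2.69% of all tested genes passed and most were lower with Cas9. MTHFD1, the cytosolic counterpart of the mitochondrial folate enzymes, had 265 and 308 mRNA CPM with Cas9 and 392 and 434 CPM with dCas9 at 72 h. Its mRNA fell, with a log2 fold change of -0.53 (SE 0.12) and an adjusted p of 0.0711 in edgeR, and it did not pass without Cas9 replicate a (1.00). MTHFD1 and TYMS footprints at 72 h had log2 fold changes of -0.038 (SE 0.068) and 0.091 (SE 0.081). Of the paralogs, 6 were tested at 36 h and 8 at 72 h, and none of the others passed. Of the 5 HEK293 markers, NEFM mRNA also fell at 72 h, with a log2 fold change of -0.89 (SE 0.21) and an adjusted p of 0.0711 in edgeR, from 4.50 and 5.43 CPM with dCas9 to 2.65 and 2.73 CPM with Cas9, and did not pass without either Cas9 replicate (1.00 and 0.130). Its part in the results above was not tested.

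The correlations between members from library to library went both ways, and those of other gene pairs are not given beside them. After each library type and time point was centred, 18 of 36 pairs among the 9 genes had a positive correlation of log2 CPM over the 17 libraries, with a median r of -0.028. The highest r was 0.70 for PSPH and DDIT4 and the lowest -0.65 for SHMT2 and ASNS. The genes whose profile was most like the mean profile of the 9 were EVL with r = 0.95, FBXW2 with 0.92, ZFP1 with 0.92, BAK1 with 0.92 and EPAS1 with 0.91. The 4 footprint libraries at 36 h carried 90.6% of the variation of that mean profile, so these values mostly describe 4 libraries, 2 of which were shallow.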

How the data were processed

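By the study's methods, the authors aligned reads to GRCh38 with hisat2 and GENCODE release 22 at 36 h, and with tophat and release 25 at 72 h, whereas the submitters' processing notes name HISAT2 2.1.0 for all libraries. Reads were tabulated with fp-count. The deposited values are raw counts per transcript from the authors' pipeline. The 72 h Cas9 footprint titles read rcas9, and the treatment label says Cas9. Transcripts were matched to GENCODE release 44 (unmatched ones held 3.74% and 4.22% of counts), and the transcript with the highest total was kept per gene and time, which differed for TRIB3. PSPH, PSAT1, MTHFD2 and ASNS have pseudogenes and multiple mapping was not examined, so their counts are uncertain.

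Genes whose mean count reached 20 in footprint and in mRNA libraries were fitted in edgeR 4.0.16 (R 4.3.3) with TMM, per library type and time point. Translational efficiency was the interaction in a joint fit. Standard errors are from the F statistic, and single-library log2 values use a prior count of 2. Scripts were tested on simulated data. The members and gene lists were chosen with earlier results of these data known. Named genes were the members, list genes that passed, ATF4, and the 5 genes most like the members' mean profile. JAK2 and the cell markers were named as checks, chosen after their values were seen. Alternatives included DESeq2 1.42.0, and the crossed block and GC content removal were added after seeing the data. By the study's methods, each lysate was divided between footprint and mRNA libraries, but the titles do not say which libraries share a lysate. At 36 h the letter was taken as the lysate. The deviations of same-lettered footprint and mRNA libraries correlated by only 0.064 (Cas9 a) and 0.010 (dCas9 d), so the letters do not establish this.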

Additional observations from a re-analysis of the deposited data

How the results depend on the processing

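No member passed in any comparison under DESeq2, median-ratio size factors, other count minimums, the transcripts of 36 h or a block. For mRNA at 72 h, 2 members passed when footprints and mRNA were in 1 fit, and 2 with GC content removed. The cause was not tested. Each nuclease had only 2 footprint libraries at 36 h and at 72 h, and the shallowest were at 36 h. What limited the number of calls was not tested.

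Leaving out single libraries gave the following ranges, in which a lone sample is assumed to vary like the other group. For footprints at 36 h, 0 to 72 genes passed, the members' median was 0.20 to 0.30, and log2 fold changes ranged from -0.16 to 0.010 for PHGDH, -0.043 to 0.37 for MTHFD2, -0.18 to 0.47 for TRIB3, 0.39 to 1.46 for DDIT4, 0.20 to 0.52 for ASNS, 0.11 to 0.37 for PSAT1 and 0.082 to 0.33 for SESN2. For mRNA at 36 h, 0 to 218 genes passed, the median was -0.055 to 0.077, and values ranged from -0.098 to 4.5e-05 for PSAT1, -0.12 to 0.077 for PSPH, -0.055 to 0.016 for MTHFD2, -0.022 to 0.17 for TRIB3, -0.085 to 0.13 for SESN2 and -0.11 to 0.12 for DDIT4. For translational efficiency at 36 h, 0 to 474 genes passed, the median was 0.13 to 0.32, and values ranged from -0.056 to 0.13 for PHGDH, -0.050 to 0.10 for SHMT2 and -0.14 to 0.49 for TRIB3. The upper counts of 72, 218 and 474 came without dCas9 replicate d. For footprints at 72 h, 1 to 41 genes passed, the median was -0.038 to 0.064, and values ranged from -0.050 to 0.056 for PHGDH, -0.10 to 0.020 for PSAT1, -0.020 to 0.085 for SHMT2, -0.17 to 0.15 for MTHFD2, -0.021 to 0.25 for TRIB3, -0.057 to 0.18 for SESN2 and -0.46 to -0.063 for PSPH. For mRNA at 72 h, 0 to 3 members and 5 to 2828 genes passed, the median was -0.051 to 0.036, and values ranged from -0.051 to 0.13 for SHMT2 and -0.033 to 0.32 for ASNS. For translational efficiency at 72 h, 0 to 1 members and 1 to 1065 genes passed, the median was 0.027 to 0.15, and values ranged from -0.10 to 0.14 for SHMT2, -0.15 to 0.14 for ASNS and -0.20 to 0.15 for TRIB3. For the difference between the times, 0 to 40 genes passed in footprints, with a median of -0.27 to -0.085, and 1 to 269 in mRNA, with a median of -0.056 to 0.086.

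For mRNA at 36 h, 0 genes passed in 1 fit, with DESeq2, with median-ratio size factors and with GC content removed, and 1 with filterByExpr. DDIT4 was then -0.00049, -0.0019 and -0.0021 in the first 3 of these, and PSPH -0.019 with GC content removed. For footprints at 72 h, 0 genes passed in 1 fit and 7 with GC content removed, and PHGDH was -0.014 with GC content removed and -0.0040 with no count minimum. For mRNA at 72 h, 614 genes passed in 1 fit, 2388 with GC content removed, 185 with median-ratio size factors and 493 with no count minimum. For translational efficiency, 1 gene passed at 36 h and 221 at 72 h with DESeq2, 170 at 72 h with median-ratio size factors and 260 with no count minimum, and ASNS at 72 h was 0.0042 with DESeq2 and 0.0044 with median-ratio size factors. For the mRNA difference between the times, 213 genes passed with DESeq2.

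At 72 h, Cas9 and dCas9 libraries share letters, and same-lettered libraries deviated together by 0.012 in footprints and by -0.14 in mRNA, so the letters do not establish a pairing. With the letter as a replicate block, 7 genes passed in footprints, 706 in mRNA and 88 in translational efficiency, and no member. With the crossed block, 829 genes passed in mRNA and 249 in translational efficiency. At 36 h, a replicate block by letter, taken as the lysate, changed no call, and SHMT2 translational efficiency was -0.0088.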
